A study of Mus musculus with 11 samples.

Results

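The report is about 9 genes of the oligodendrocyte lineage, Pdgfra, Cspg4, Olig1, Olig2, Sox10, Myrf, Cnp, Mag and Mbp, in cultured hippocampal neural stem cells (NSCs) of the mouse. They were taken by symbol from the 53801 genes of each table, whatever their values, and all 9 passed the filter on low counts. RNA was sequenced in 11 libraries of primary NSCs, taken from the hippocampus of C57BL/6 embryos. Proliferation medium held 20 ng/ml EGF and 20 ng/ml bFGF with 1% B27, whereas differentiation medium held neither growth factor and 2% B27. In each medium, the NSCs received 1 µM 4HBP or its vehicle EtOH for 7 days, with 3 libraries of 4HBP and 3 of EtOH in proliferation medium, and 3 of 4HBP and 2 of EtOH in differentiation medium. The sample labels call the compound 4-Hydroxybenzoic acid and the study calls it 4-hydroxybenzophenone, so only the abbreviation is used. All groups shared this source of cells and 1% glutaMAX, and no allele or transgene is named for any of them. Whether the replicates were separate animals or cultures is not given in the sources used here, so the p-values measure the spread between these libraries, which may be technical.

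Oligodendrocytes wrap axons of the central nervous system in myelin. Their progenitors carry the PDGF receptor alpha and the NG2 proteoglycan, divide in answer to PDGF, and express the transcription factors Olig1, Olig2 and Sox10. As they mature, the transcription factor Myrf switches on the genes of the myelin sheath, and hippocampal NSCs cultured without growth factors are known to give rise to some oligodendrocytes beside astrocytes and neurons.

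Library totals lay between 20822921 and 23438463 expected counts, the number of fragments RSEM assigns to a gene. Every one of the 9 genes had at least 715 counts in every library, whereas 3 counts, the smallest amount taken as detectable, equal 0.128 to 0.144 CPM (counts scaled to the library size) and cover counting error only. Replicates varied more in proliferation medium (biological coefficient of variation 0.117) than in differentiation medium (0.0368). One library stood apart: the mean chi-square per gene between 4HBP replicate 3 in proliferation medium and its fellow replicates was 23.8 and 21.4, against 5.34 between those fellow replicates, and 8 of the 9 genes were lowest of the group in it, as were 39.0% of the 15920 genes tested over all libraries. The fold changes of the 9 genes between groups that use it are given with and without it.

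Markers of other cell types were set beside the 9 genes. The 9 are themselves the oligodendrocyte markers here, so their detection, in every library, does not test that label. TPM (a level scaled per transcript length and to the sum over all genes) was summed over the 9. In proliferation medium the sum was 2119 to 2607 with EtOH and 1525 to 2231 with 4HBP. In differentiation medium it was 5774 to 6196 with EtOH and 5809 to 6021 with 4HBP. With EtOH, Mbp alone had a mean of 1175 of 2308 TPM in proliferation medium and 3360 of 5985 TPM in differentiation medium. Summed levels in bulk RNA do not assign a gene to a cell type. Astrocyte markers (8 genes) summed to 2559 to 4021 TPM in proliferation medium and 4898 to 5334 TPM in differentiation medium, and neural stem cell markers (8 genes) to 4205 to 4894 TPM and 2346 to 2464 TPM. Neuron markers (8 genes) summed to 423 to 506 TPM, mostly from Map2. With EtOH, Map2 had a mean of 391 of 466 TPM in proliferation medium and 351 of 503 TPM in differentiation medium. Schwann cells, which myelinate peripheral nerves, share several myelin genes, and of their 6 markers Foxd3 was at 0 in every library, Egr2 had 28 to 401 counts and Prx 40 to 84 counts, while the sum of 26.4 to 99.0 TPM came mostly from Pmp22. Mural and fibroblast markers, which matter for Pdgfra and Cspg4 because pericytes and fibroblasts can express them, summed to at most 13.1 TPM over 10 genes. Endothelial markers summed to at most 4.24 TPM, with Cldn5 and Cdh5 at 0 throughout, and microglial markers to at most 2.82 TPM.

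**Figure D1:**
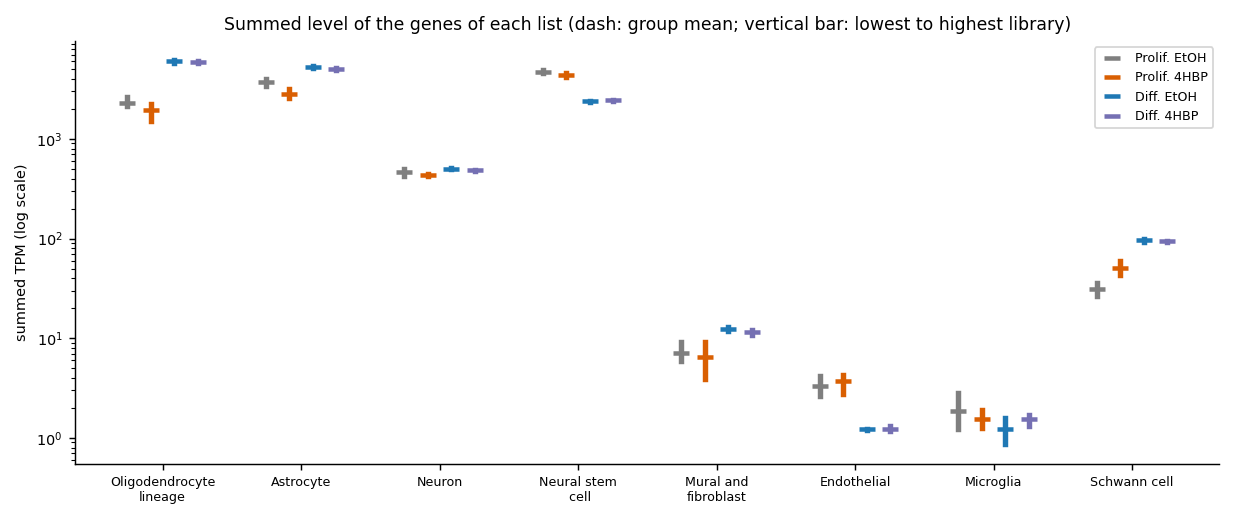
Summed TPM (y axis, log scale) of the 9 oligodendrocyte lineage genes and of 7 lists of cell type markers (x axis), by group, where a dash is the group mean and a vertical bar spans the lowest to the highest library. The lineage genes lie above 1500 TPM in every library, whereas the mural, endothelial and microglial lists lie below 15 TPM.

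To place the 9 genes beside each other, their TPM was ordered within each group. In proliferation medium with EtOH, Mbp was highest at 1175 ± 181 TPM (SD, n = 3), followed by Olig1 at 400.3 ± 17.7, Cnp at 223 ± 40.9, Olig2 at 169 ± 7.27, Mag at 127 ± 9.31, Sox10 at 87.3 ± 11.2, Myrf at 64.7 ± 6.77, Pdgfra at 51.6 ± 7.24 and Cspg4 at 9.15 ± 0.351 TPM. No neighbours in that order overlapped between libraries. In differentiation medium with EtOH (n = 2) Mbp was again highest at 3359.6 ± 235 TPM, Cnp stood second at 913 ± 17.2 TPM ahead of Olig1 at 614 ± 9.96 TPM, and Mag at 405 ± 24.3 TPM stood ahead of Olig2 at 256 ± 6.07 TPM. The myelin genes thus stood higher in the order of levels, and Cspg4 remained last at 17.9 ± 0.255 TPM. With 4HBP, the libraries of Cnp and Olig2 and of Mag and Sox10 overlapped in proliferation medium, as did those of Myrf and Sox10 in differentiation medium. The order is given within a group, because the mitochondrial gene mt-Atp8, shorter than the fragments RSEM models, took 13.0% to 15.9% of all TPM in proliferation medium and 4.48% to 4.79% in differentiation medium, which lowers every other TPM in the former. The summed TPM of the cell type lists carry a shift between the media too, and tests between groups used CPM normalized by the TMM method. That share of mt-Atp8 is not the whole shift. With EtOH, Olig2, of the same transcript length in every library, had means of 169 TPM and 293 normalized CPM in proliferation medium. In differentiation medium these were 256 TPM and 331 normalized CPM. What else shifts the TPM was not tested.

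**Figure D2:**
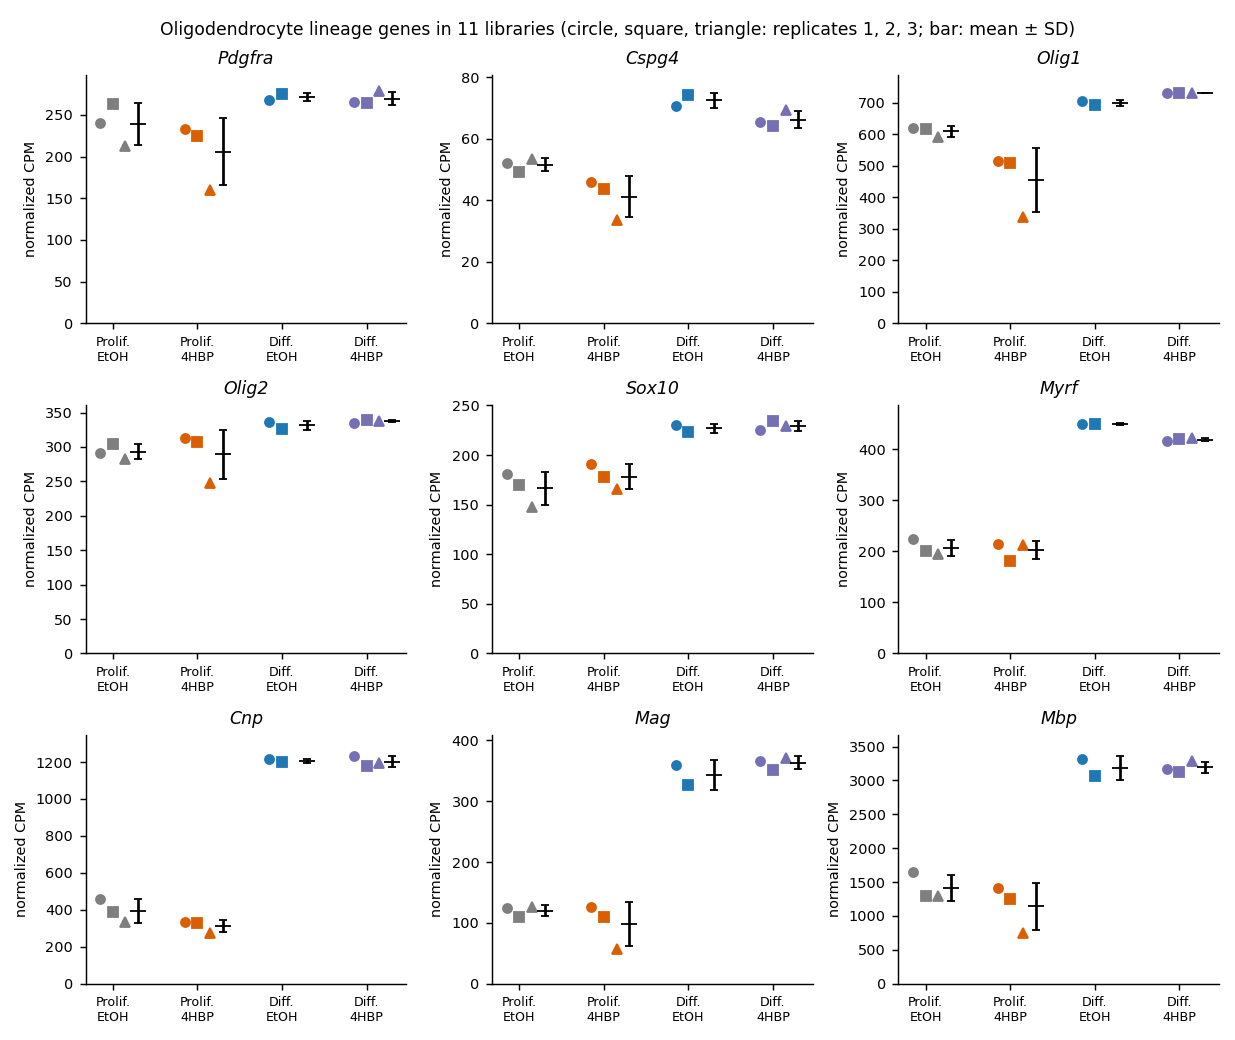
Normalized CPM (y axis, from 0) of the 9 genes in 4 groups (x axis), with a circle, square or triangle for replicates 1, 2 and 3 and a bar for the mean ± SD. Every differentiation library of Cnp, Mag, Mbp and Myrf is above every proliferation library, and the triangle of 4HBP in proliferation medium is the lowest of the 11 points for Mag, Mbp, Olig1, Olig2, Cspg4, Pdgfra and Cnp.

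To ask how the lineage answered to the change of medium, differentiation medium was compared with proliferation medium with EtOH alone. The 3 myelin genes and Myrf were higher by 2.17-fold to 3.06-fold, Cspg4 and Sox10 by 1.40-fold and 1.36-fold, and Pdgfra, Olig1 and Olig2 did not pass the test. In all, 6 of the 9 genes passed as higher in edgeR's quasi-likelihood test (adjusted p under 0.05) and none as lower, whereas 30.8% of the 15920 genes tested passed as higher and 30.6% as lower. The median log2 fold change of the 9 genes was 0.49 and that of all genes tested 0.03. Every differentiation library was above every proliferation library for 9 of the 9 genes, as for 39.3% of all genes. In bulk RNA, more cells of a type and more RNA per cell cannot be told apart.

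Cnp encodes a cyclic nucleotide phosphodiesterase of non-compact myelin and rose the most. Its normalized CPM was 460.4, 388 and 334 in the EtOH libraries of proliferation medium and 1215 and 1199 in those of differentiation medium. The groups did not overlap, and the log2 fold change was 1.61 ± 0.11 (SE; edgeR adjusted p = 9.14e-08). The gene (ENSMUSG00000006782.16, chr11:100574904-100591729, plus strand, GRCm38) overlaps Dnajc7 on the other strand, which had a mean of 4620 counts. The kit marks the strand, but whether the counting used it is not given in the sources used here. Mag, an adhesion protein of the membrane facing the axon (ENSMUSG00000036634.15, chr7:30899176-30914873, minus strand), had 125, 109 and 126 CPM in proliferation medium and 360.3 and 326 CPM in differentiation medium. Its log2 fold change was 1.52 ± 0.22 (SE; edgeR adjusted p = 5.05e-05). Mbp, the myelin basic protein that compacts the sheath (ENSMUSG00000041607.16), had the highest TPM of the 9 genes in every group. It had 1642, 1296 and 1300.1 CPM in proliferation medium and 3314 and 3062 CPM in differentiation medium, a log2 fold change of 1.17 ± 0.19 (SE; edgeR adjusted p = 0.000141).

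Myrf, the regulator of the myelin genes (ENSMUSG00000036098.15, chr19:10208272-10240748, minus strand), had 225, 201 and 195 CPM in proliferation medium and 450.3 and 449 CPM in differentiation medium. Its 5 values left a wide gap between the media, and the log2 fold change was 1.12 ± 0.08 (SE; edgeR adjusted p = 8.53e-08). The other transcription factors moved less. Sox10, which acts throughout the lineage (ENSMUSG00000033006.10, chr15:79154908-79165240, minus strand), had 181, 170.2 and 148 CPM in proliferation medium and 230.1 and 224 CPM in differentiation medium. It rose by 0.45 ± 0.08 on the log2 scale (SE; edgeR adjusted p = 0.000391). Olig1 (ENSMUSG00000046160.6, chr16:91269772-91271933, plus strand) had 619.6, 618 and 589.6 CPM against 705 and 693 CPM, with a log2 fold change of 0.20 ± 0.13 that did not pass (SE; edgeR adjusted p = 0.214). Its neighbour Olig2 (ENSMUSG00000039830.8, chr16:91225457-91228677, plus strand) had 292, 304 and 283 CPM against 336 and 327 CPM, and its log2 fold change of 0.18 ± 0.08 did not pass either (SE; edgeR adjusted p = 0.0858). Both are helix-loop-helix factors of the lineage, and in both the libraries of the media did not overlap. Olig1 and Olig2 passed when only the libraries of the 2 groups were fitted (edgeR adjusted p = 0.0100 and 0.0226), a fit without the 4HBP libraries of both media. Why they passed there was not tested.

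The progenitor surface genes changed by less than the myelin genes. Cspg4, the NG2 proteoglycan (ENSMUSG00000032911.6, chr9:56865033-56899870, plus strand), had 52.2, 49.2 and 53.4 CPM in proliferation medium and 70.7 and 74.2 CPM in differentiation medium. It rose by 0.49 ± 0.11 on the log2 scale (SE; edgeR adjusted p = 0.00131). Pdgfra, the receptor through which PDGF keeps progenitors dividing (ENSMUSG00000029231.15, chr5:75152292-75198215, plus strand), had 239.9, 264 and 213 CPM against 268 and 275 CPM, and its log2 fold change of 0.18 ± 0.13 did not pass (SE; edgeR adjusted p = 0.237). Of the mural and fibroblast list, 4 of 10 genes were tested in this comparison, with 2 higher and 2 lower. Pdgfrb, the pericyte receptor for PDGF, rose from a mean of 0.724 to 28.4 CPM, while Rgs5 and Acta2 fell. Their part in the values of Pdgfra and Cspg4 was not tested.

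With 4HBP in both media, the same comparison called 9 of the 9 genes higher (edgeR adjusted p between 5.82e-09 for Cnp and 0.0198 for Olig2), against 33.3% of all genes higher and 33.8% lower. Here too every differentiation library was above every proliferation library for 9 of the 9 genes, as for 36.1% of all genes. Cnp had 333.7, 329 and 273 CPM in proliferation medium and 1234, 1178 and 1193 CPM in differentiation medium, a log2 fold change of 1.95 ± 0.11 (SE). Mag had 125, 109.9 and 56.6 CPM against 366, 351 and 372 CPM, a log2 fold change of 1.90 ± 0.20 (SE). In Mag, replicate 3 of proliferation medium was far below its fellows, and without it the log2 fold change was 1.62. Mbp had 1414, 1251 and 754 CPM against 3166, 3126 and 3288 CPM, a log2 fold change of 1.49 ± 0.18 (SE), or 1.25 without that library. Cnp, Myrf and Sox10 had log2 fold changes of 1.85, 1.08 and 0.31 without it. With all libraries, Myrf was higher by 1.05 ± 0.07, Cspg4 by 0.69 ± 0.10, Olig1 by 0.69 ± 0.12, Pdgfra by 0.39 ± 0.12, Sox10 by 0.37 ± 0.07 and Olig2 by 0.22 ± 0.08 on the log2 scale (SE). Without replicate 3 of proliferation medium all 9 genes still passed, with log2 fold changes of 0.55 for Cspg4, 0.51 for Olig1, 0.23 for Pdgfra and 0.12 for Olig2. Olig2 did not pass without 4HBP replicate 2 of differentiation medium (edgeR adjusted p = 0.0515).

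**Figure D3:**
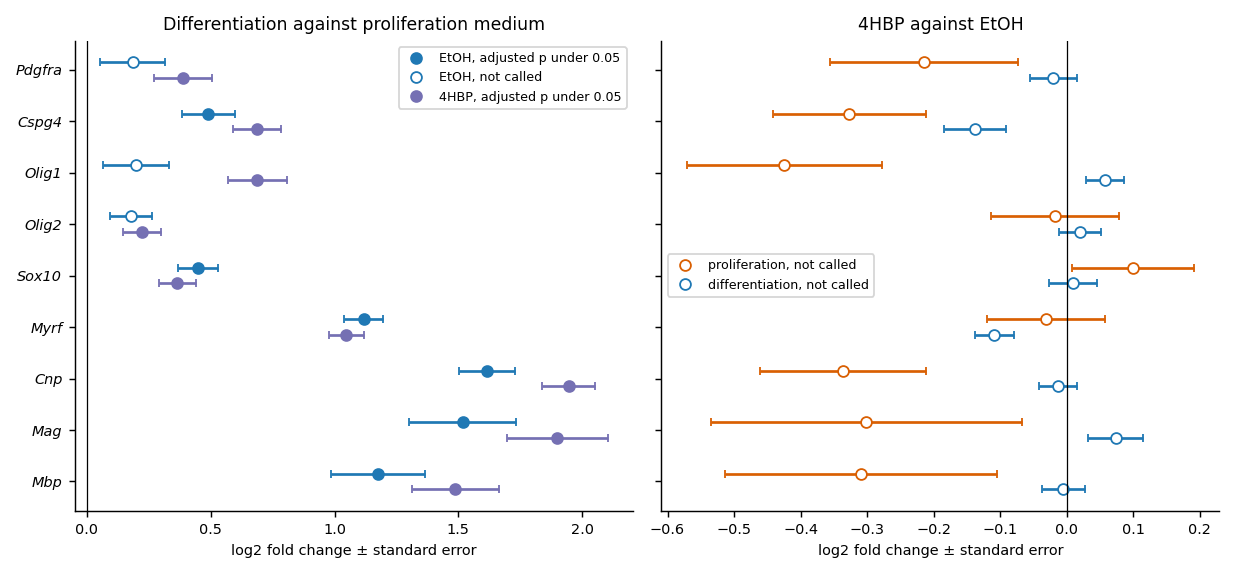
Log2 fold change ± SE (x axis) of the 9 genes (y axis) between the media (left, with EtOH and with 4HBP) and between 4HBP and EtOH (right, in each medium), where filled points passed the test (edgeR adjusted p under 0.05). Between the media all points lie right of 0 and those of Cnp, Mag, Mbp and Myrf beyond 1, whereas between 4HBP and EtOH no point is filled and the wide bars belong to proliferation medium.

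To see whether other genes of the lineage moved with the 9, a list of 78 further genes was examined, of which 75 passed the filter. Between the media with EtOH, 51 were higher and 11 lower (all genes: 30.8% and 30.6%), with a median log2 fold change of 0.83. With 4HBP, 53 were higher and 13 lower (all genes: 33.3% and 33.8%), with a median of 1.10, or 0.96 without 4HBP replicate 3 of proliferation medium. The myelin and mature oligodendrocyte genes moved the most. Of 23 tested, 18 were higher and 1 lower with EtOH, with a median log2 fold change of 1.76. Mobp, a small basic protein of myelin, rose from 49.3 ± 7.29 to 430 ± 22.2 CPM (log2 fold change 3.12). Mal, a lipid raft protein, rose from 2.32 ± 0.314 to 60.2 ± 5.79 CPM (log2 fold change 4.70). Mog, which lies on the outermost myelin layer, had 11, 13 and 13 counts in the EtOH libraries of proliferation medium and 873 and 776 in those of differentiation medium. With 4HBP in proliferation medium Mog had 9, 2 and 0 counts, so it was close to the limit of detection there. Ermn, Tspan2 and Apod were also higher with EtOH, by 2.27, 3.04 and 3.14 on the log2 scale. Opalin, another oligodendrocyte membrane protein, was the exception and fell from 17.4 ± 4.59 to 3.73 ± 1.09 CPM (log2 fold change -2.23; edgeR adjusted p = 0.000291).

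Progenitor and premyelinating genes passed as higher in 12 of 16 cases with EtOH and as lower in 2 (all genes: 30.8% and 30.6%). The other counts of this paragraph are likewise of genes that passed, against the same shares. Gpr17, a receptor of cells between progenitor and myelinating stage, rose from 234 ± 59.6 to 1095 ± 5.37 CPM (log2 fold change 2.23), and Neu4, a sialidase, from 0.985 ± 0.173 to 11.7 ± 0.0239 CPM (log2 fold change 3.57). Ninj2, an adhesion molecule, had 1 to 3 counts in each proliferation library and 54 to 73 in each differentiation library. C1ql1, a secreted protein of progenitors, fell by 1.08 on the log2 scale. Among the transcription factors, 6 of 11 were higher and 3 lower with EtOH. Sox8, the relative of Sox10, was higher by 0.83, whereas Nkx2-2 fell by 0.95 on the log2 scale. Of 7 inhibitors of differentiation, 2 were higher and 3 lower, near the shares over all genes. Hes5, a Notch target, fell by 3.46 and Sox5 by 1.00, Id4 rose by 1.74, and Id2 had a log2 fold change of 0.06 that did not pass (edgeR adjusted p = 0.393). In the same comparison, 7 of the 8 neural stem cell markers, Hes5 among them, were lower and Prom1 was higher, while 5 of the 8 astrocyte markers were higher and 3 lower. Of 8 ligands tested, 6 were higher and none lower with EtOH, and of 10 receptors and their pathway genes 7 were higher and 2 lower.

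**Figure D4:**
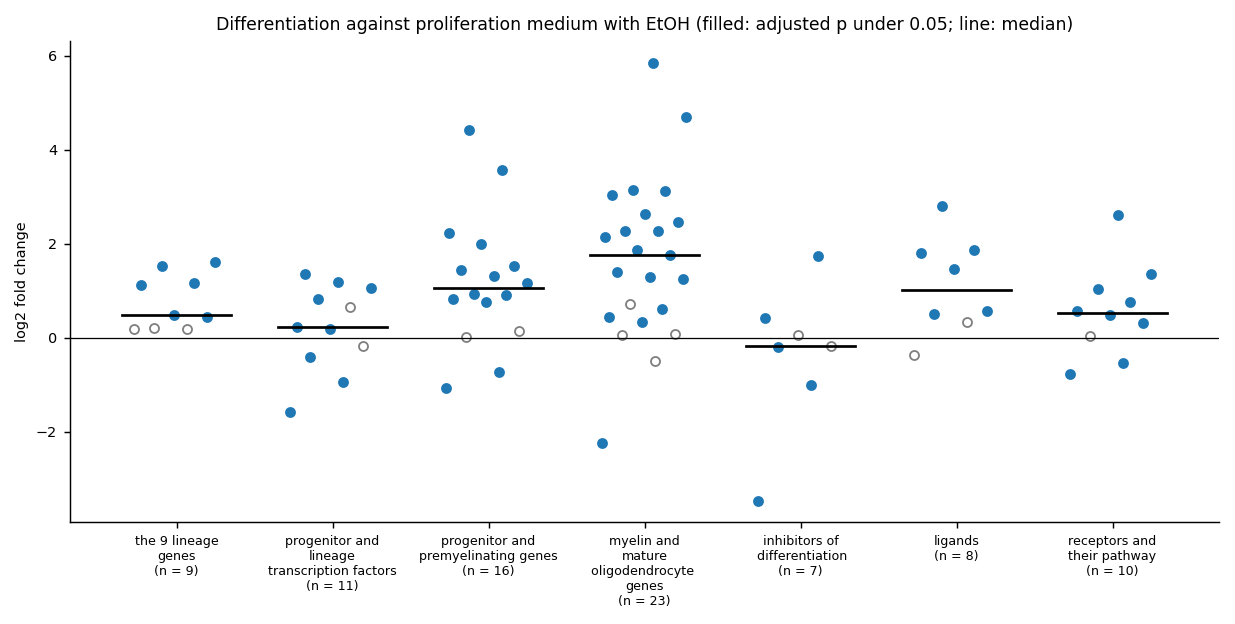
Log2 fold change between differentiation and proliferation medium with EtOH (y axis) of the 9 genes and of 6 groups of other lineage genes (x axis, with the number tested), where filled points passed the test and a line marks the median. The median is highest in the myelin group at 1.76 and below 0 only among the inhibitors of differentiation, at -0.17.

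To ask whether 4HBP changed the lineage genes of proliferating NSCs, 4HBP was compared with EtOH in proliferation medium. No gene of the 9 passed the test (edgeR adjusted p under 0.05), while 7.43% of 14449 genes tested did, 3.74% higher and 3.69% lower. In 8 of the 9 genes the fold change was negative, with a median log2 fold change of -0.30 against 0.00 over all genes tested. Without 4HBP replicate 3 it was negative in 7 of the 9 and the median was -0.06. At an unadjusted p under 0.05 there were 3 genes, Olig1, Cspg4 and Cnp, against 3621 of the 14449 genes tested. Those were also the 3 whose libraries did not overlap, as for 31.3% of all genes. DESeq2, voom with library weights and edgeR with no filter on low counts called 1 gene each, Olig1, and limma on log2(CPM + 1) called 0.

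Olig1 had the lowest adjusted p. Its CPM was 619.6, 618 and 589.6 with EtOH and 516, 508 and 337 with 4HBP, so every 4HBP library was below every EtOH library. The log2 fold change was -0.42 ± 0.15 (SE; edgeR adjusted p = 0.112), and without replicate 3 it was -0.25 ± 0.07 (SE; edgeR adjusted p = 0.0516). It passed in the fit of all 11 libraries (edgeR adjusted p = 0.0294), which takes in those of differentiation medium. Why it passed there was not tested. Cspg4 had 52.2, 49.2 and 53.4 CPM with EtOH and 46.1, 43.8 and 33.5 CPM with 4HBP. Again the groups did not overlap, and the log2 fold change was -0.33 ± 0.11 (SE; edgeR adjusted p = 0.117), or -0.19 without replicate 3. Cnp had 460.4, 388 and 334.0 CPM with EtOH and 333.7, 329 and 273 CPM with 4HBP. Its lowest EtOH and highest 4HBP library were all but equal, and the log2 fold change was -0.34 ± 0.12 (SE; edgeR adjusted p = 0.134), or -0.25 without replicate 3. Cspg4 and Cnp, too, passed in the fit of all 11 libraries (edgeR adjusted p = 0.0367 and 0.0408).

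In the other 6 genes the groups overlapped. Mag had 125, 109 and 126 CPM with EtOH and 125, 109.9 and 56.6 CPM with 4HBP. Here 1 library made the difference: the log2 fold change was -0.30 ± 0.23 (SE) with replicate 3 and -0.02 ± 0.09 without it. Mbp had 1642, 1296 and 1300.1 CPM against 1414, 1251 and 754 CPM, with log2 fold changes of -0.31 ± 0.20 and -0.08 ± 0.11 (SE) with and without that library. Pdgfra had 239.9, 264 and 213 CPM against 234, 225 and 159 CPM, with log2 fold changes of -0.21 ± 0.14 and -0.06 ± 0.09 (SE). In replicate 3, Mag was at 48.1%, Mbp at 56.6%, Olig1 at 65.7% and the cell cycle marker Mki67 at 52.4% of the mean of replicates 1 and 2, whereas Sox10 was at 90.0% and Myrf at 107%. Olig2, Myrf and Sox10 had log2 fold changes of -0.02 ± 0.10, -0.03 ± 0.09 and 0.10 ± 0.09 (SE) with replicate 3. Without it these were 0.09 ± 0.07, -0.06 ± 0.09 and 0.15 ± 0.09 (SE), so the sign of Olig2 turned. The sign of Olig2 and Myrf also turned when library totals replaced TMM (0.01 and 0.00). Of the 8 astrocyte markers 4 were lower with 4HBP in this comparison (Gfap, Aqp4, Aldoc and Gja1) and none higher, and 6 were lower without replicate 3. Of the Schwann cell list 3 of 6 genes were tested, and Egr2 and Pmp22 were higher with 4HBP, by 2.52 and 0.51 on the log2 scale (edgeR adjusted p = 0.0265 and 0.0235), or by 1.58 and 0.53 without replicate 3. Their part in the values of the lineage genes was not tested.

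Among the other lineage genes, 72 were tested in proliferation medium, and 2 were higher and 9 lower with 4HBP, while 3.74% of all genes were higher and 3.69% lower. The median log2 fold change of the list was -0.20. Fgfr2, a receptor for FGF, fell from 82.6 ± 6.78 to 46.3 ± 6.30 CPM (SD, n = 3 each; log2 fold change -0.84), C1ql1 from 73.8 ± 7.57 to 44.0 ± 3.50 CPM (log2 fold change -0.75) and Vcan, a proteoglycan of the matrix, from 267 ± 25.8 to 162 ± 1.96 CPM (log2 fold change -0.72). These 3 genes passed without each of the 6 libraries in turn. Ermn, a cytoskeletal protein of myelinating cells, was lower by 1.12, Lingo1, an inhibitor of myelination, by 0.56 and Sox5 by 0.36 on the log2 scale, each passing in 2 of those 6 fits. Nrg1, the neuregulin that myelinating glia read on axons, rose from 2.29, 1.68 and 3.12 CPM to 6.71, 5.42 and 7.64 CPM, a log2 fold change of 1.48 ± 0.24 (SE; edgeR adjusted p = 0.0124), and passed in 4 of the 6 fits, failing without EtOH replicate 1 or 2. Car2, a carbonic anhydrase, was higher by 0.29 and passed in 0 of the 6. Pdgfa, the ligand of Pdgfra, had a log2 fold change of 0.37 that did not pass (edgeR adjusted p = 0.0794). Of the 11 calls, 7 were kept without 4HBP replicate 1, 5 without 4HBP replicate 2, 4 without EtOH replicate 1 or 2, 8 without EtOH replicate 3 and 10 without 4HBP replicate 3, and limma on log2(CPM + 1) called 1 gene of the list.

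To ask the same of differentiating cells, 4HBP was compared with EtOH in differentiation medium. Again none of the 9 genes passed the test (edgeR adjusted p under 0.05), while 2.55% of 15484 genes did, 1.26% higher and 1.29% lower. The median log2 fold change of the 9 was -0.01, and their values ran from -0.14 to 0.07. At an unadjusted p under 0.05 there were 2 genes, Cspg4 and Myrf, against 2460 of the 15484 genes tested. DESeq2, limma and voom called 0 of the 9, edgeR on library totals called Myrf, and the replicate block called 2. Libraries did not overlap in 3 genes, as in 32.9% of all genes. Myrf had 450.3 and 449 CPM with EtOH and 416, 419 and 421 CPM with 4HBP. All 3 values with 4HBP were below both with EtOH, and the log2 fold change was -0.11 ± 0.03 (SE; edgeR adjusted p = 0.0699). Cspg4 had 70.7 and 74.2 CPM against 65.5, 64.0 and 69.3 CPM, a log2 fold change of -0.14 ± 0.05 (SE; edgeR adjusted p = 0.142). Olig1 lay the other way, with 705 and 693 CPM against 732, 729.6 and 731 CPM, a log2 fold change of 0.06 ± 0.03 (SE; edgeR adjusted p = 0.342). The myelin genes Cnp (-0.01 ± 0.03), Mbp (-0.01 ± 0.03) and Mag (0.07 ± 0.04), and Pdgfra (-0.02 ± 0.03), Olig2 (0.02 ± 0.03) and Sox10 (0.01 ± 0.04), had these log2 fold changes (± SE) and overlapping groups. A 95% interval of the log2 fold change, taken from the SE and a normal distribution, was -0.07 to 0.06 for Mbp, -0.07 to 0.04 for Cnp and -0.01 to 0.15 for Mag. With so few libraries such intervals are too narrow. That of Olig1, 0.002 to 0.11, left out 0, while its unadjusted edgeR p was 0.0608.

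In the list of other lineage genes, the same test in differentiation medium called 4 of 75 higher and 6 lower (all genes: 1.26% and 1.29%), with a median log2 fold change of -0.00. Tspan2, a tetraspanin of myelin, was higher by 0.29 and Apod, a lipid carrier of mature oligodendrocytes, by 0.53, while Igf1r, the receptor for IGF, was lower by 0.39, Plekhb1 by 0.29 and Gjc3, a connexin, by 0.20. Tspan2 and Igf1r passed without each of the 5 libraries in turn. Apod failed without EtOH replicate 2, Plekhb1 without EtOH replicate 1, and Gjc3 without either. Nrg1 fell from 8.51 and 8.84 CPM to 6.06, 5.79 and 6.59 CPM (log2 fold change -0.51), and Lingo1 was higher by 0.25, Itga6, an integrin chain, by 0.19, and Fgfr1 lower by 0.15, each in 1 of those 5 fits only. Of the 10 calls, 6, 5 and 7 were kept without 4HBP replicates 1, 2 and 3, 3 without EtOH replicate 1 and 4 without EtOH replicate 2, and limma on log2(CPM + 1) called 0.

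The difference between both 4HBP effects was tested as an interaction (differentiation minus proliferation). It passed for none of the 9 genes (edgeR adjusted p under 0.05), while 4.49% of 15920 genes passed. Of the 9, 1 gene, Olig1, had an unadjusted p under 0.05, as had 3165 of the 15920. The interaction of Olig1 was 0.49 ± 0.18 on the log2 scale (SE; edgeR adjusted p = 0.153). Without 4HBP replicate 3 of proliferation medium it was 0.31 ± 0.06 and passed (edgeR adjusted p = 0.0108), and voom with library weights called it too, as did the fit with no filter on low counts (4 of the 9), whereas DESeq2 and limma called 0 of the 9. For Mag, Cnp and Mbp the interaction was 0.38 ± 0.30, 0.33 ± 0.15 and 0.31 ± 0.26 (SE), and without that library 0.10, 0.24 and 0.08. Apart from these alternatives, a difference between the media in the answer of these genes to 4HBP was not detectable at this spread, which was widest in the proliferation libraries. Of the 8 astrocyte markers, 3 interactions passed as positive and 0 as negative, with a median of 0.57 on the log2 scale. Among the 75 other lineage genes tested, 8 interactions passed as positive and 3 as negative, with a median of 0.15. By sign alone 55 of the lineage list were positive and 20 negative, or 49 and 26 without 4HBP replicate 3 of proliferation medium.

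The tables also hold, for each gene, the mean length of its transcripts weighted by their estimated abundance, which moves when RSEM assigns fragments to other isoforms. Olig1 and Olig2 have a single length. For Mag, the length was 1336 to 1467 bases in the 6 proliferation libraries and 1587 to 1667 bases in the 5 differentiation libraries, with no overlap. Alternative splicing of Mag is known to give a long and a short protein. For Mbp the length was 1709 to 1765 and 1811 to 1849 bases, and for Myrf 4051 to 4350 bases and 4535 to 4766 bases. In these 3 genes the media did not overlap, and the exact two-sided permutation test gave p = 0.00216, the smallest value that the 462 arrangements of these libraries allow (adjusted p = 0.00505 over 7 genes). Pdgfra was shorter in differentiation medium by 224 bases on average (exact permutation p = 0.0195, adjusted p = 0.0341), with overlap between the libraries. Cspg4, Sox10 and Cnp had exact permutation p between 0.820 and 0.924. The fragments modelled by RSEM differed between the media as well: the effective length of mt-Atp8 was 18.7 to 23.6 bases in proliferation medium and 34.1 to 45.3 bases in differentiation medium, and whether that moves the isoform estimates was not tested.

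**Figure D5:**
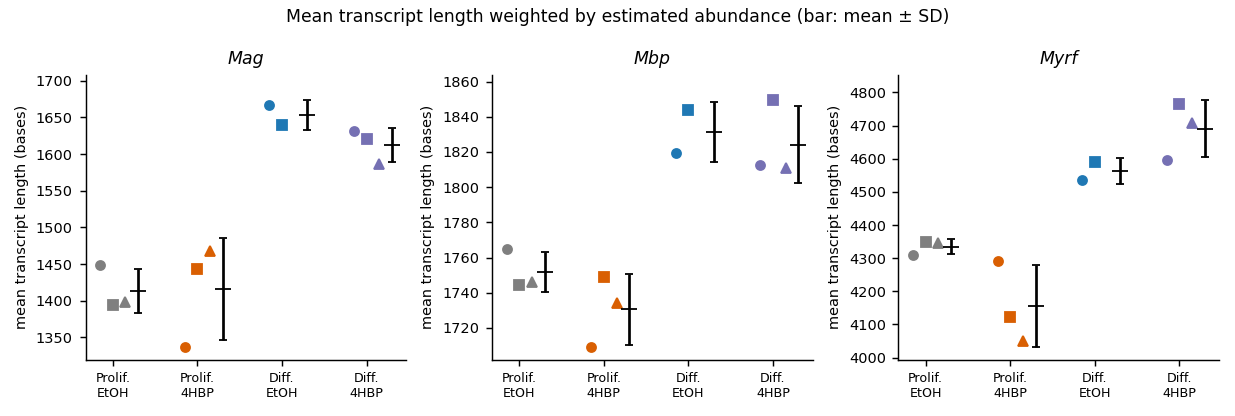
Mean transcript length in bases (y axis, not starting at 0) of Mag, Mbp and Myrf in 4 groups (x axis), with a symbol for each library and a bar for the mean ± SD. Every differentiation library lies above every proliferation library in all 3 genes.

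The genes closest in pattern to each of the 9 were taken by the Pearson correlation of normalized log2 CPM over the 11 libraries, which fall into 2 media, so that any gene differing between the media correlates. The closest gene was Lgi3 for Cnp (r = 0.999), Gm37111 for Mag (r = 0.997), Prom1 for Mbp (r = 0.997), Rictor for Myrf (r = 0.997), Cemip2 for Cspg4 (r = 0.990), Gm6556 for Olig1 (r = 0.987), Nudt7 for Sox10 (r = 0.974), Srsf2 for Olig2 (r = 0.973) and Abl1 for Pdgfra (r = 0.958). Of the other lineage genes Ugt8a, an enzyme of myelin lipid synthesis, was among the 3 closest to Mbp (r = 0.996). These values are a description.

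Promoter sequences were examined because Cnp and Mag, which moved together between the media, belong to the myelin genes that Myrf is known to act on. RefSeq sequence (GRCm38.p6) of 250 bases before a start site was found for 5 of the 9 genes, Pdgfra, Cspg4, Olig2, Cnp and Mag, the last with 3 start sites. The letters CTGGCAC or CTGGTAC, the core known for Myrf, were searched on both strands and occur in 5.93% of the 32851 promoter windows of that length. They occurred at 1 position before the start of Cnp and at 1 position shared by overlapping windows of Mag, but not in its other window or in those of Pdgfra, Cspg4 and Olig2. With any base in place of the C or T (CTGGNAC), 16.1% of all windows held a match, Cnp and Mag held 2 each, and the others none. The narrower letters were added after seeing the data. Other letters were searched too. Sox letters (ACAANG, 36.3% of all windows) occurred before Cnp, Mag, Pdgfra and Olig2. E-box letters (CANNTG, 66.2%) occurred before Cnp, Mag and Pdgfra, and CAGCTG (13.0%) before none of these genes. GC box letters (GGGCGG, 32.7%) occurred before Cnp, Cspg4 and Olig2, and TATAAA (12.4%) before Olig2. A match of letters is a description and not a binding site. The Cnp sequence is chr11:100574689-100574903 on the plus strand, the Mag sequence chr7:30914923-30915172 on the minus strand and, for comparison, the Olig2 sequence chr16:91225300-91225456 on the plus strand, each ending before the annotated gene. Capitals mark the Myrf letters.
Cnp: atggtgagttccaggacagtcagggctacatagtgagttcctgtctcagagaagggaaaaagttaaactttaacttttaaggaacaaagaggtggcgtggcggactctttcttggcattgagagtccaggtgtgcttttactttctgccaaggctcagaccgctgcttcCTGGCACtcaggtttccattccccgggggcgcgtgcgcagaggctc
Mag: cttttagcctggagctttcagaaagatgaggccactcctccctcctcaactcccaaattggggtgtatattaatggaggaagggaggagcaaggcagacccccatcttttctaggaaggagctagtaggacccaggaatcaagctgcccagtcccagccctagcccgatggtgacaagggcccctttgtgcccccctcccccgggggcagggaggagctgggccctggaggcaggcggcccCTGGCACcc
Olig2: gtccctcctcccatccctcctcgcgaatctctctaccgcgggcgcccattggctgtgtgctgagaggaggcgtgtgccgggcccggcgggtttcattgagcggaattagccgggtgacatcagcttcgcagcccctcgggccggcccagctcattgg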

How the data were processed

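RNA of primary hippocampal NSCs was sequenced as paired ends in 11 libraries of 4 groups. Per the labels, the authors used FastQC 0.11.5, cutadapt, Bowtie2 2.2.9 and RSEM 1.3.0 on mm10/GRCm38, and deposited expected counts, TPM and FPKM for 53801 genes, with transcript lengths. Coordinates came from a GENCODE annotation of that build (99.8% of IDs matched).

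Expected counts were rounded and tested with edgeR 4.0.16 (R 4.3.3, filterByExpr, TMM, quasi-likelihood test, Benjamini-Hochberg adjusted p under 0.05). 4HBP was compared with EtOH within each medium, and the media and the interaction were taken from a fit of all 11 libraries with 4 group means. Self-tests on simulated counts recovered 94.5% to 100.0% of 200 genes changed by 2-fold, with 10 to 15 false calls. They gave all genes 1 spread, held no outlying library and do not speak to smaller changes. DESeq2 1.42.0 and limma 3.58.1 (voom included), other scalings, no filter, a replicate block and left-out libraries were alternatives. The study's methods name no pairing, so the replicate numbers were not taken as pairs. Same-numbered replicates did not deviate together over all genes, but so few libraries cannot exclude pairing.

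The 9 genes and the gene lists were chosen with earlier results of these data known. Of the 78 other lineage genes, 10 were always to be named, with up to 5 higher and 5 lower genes per comparison by fold change among those that passed and did not overlap, and the 3 genes most correlated with each of the 9. Counts over the lists under the alternatives, list values without 4HBP replicate 3 and the narrower Myrf letters were added after seeing the data. A few genes of the lists count in the totals but are not reported here by name.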

Additional observations from a re-analysis of the deposited data

Results flagged for a closer look

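The 4HBP effect differed between the media in 8 of the other lineage genes named above, by the interaction term (differentiation minus proliferation, log2 scale; edgeR adjusted p under 0.05). It was positive for Ermn at 1.13 (adjusted p = 0.0166), Fgfr2 at 0.92 (adjusted p = 0.00319), Lingo1 at 0.82 (adjusted p = 0.0109), C1ql1 at 0.76 (adjusted p = 0.00805) and Vcan at 0.74 (adjusted p = 0.0029). It was negative for Nrg1 at -1.97 (adjusted p = 0.00319), Igf1r at -0.71 (adjusted p = 0.0187) and Pdgfa at -0.57 (adjusted p = 0.0416). Without each of the 11 libraries in turn, Nrg1, Fgfr2 and Vcan passed in 11 fits, C1ql1 in 10, Lingo1 in 9, Ermn in 8, Igf1r in 6 and Pdgfa in 2. C1ql1 failed without EtOH replicate 2 of differentiation medium, Lingo1 without either EtOH library of that medium, Ermn without those or 4HBP replicate 3 of that medium, and Igf1r without any 1 of the 5 differentiation libraries. Pdgfa passed only without replicate 3 of either proliferation group. Such interactions were not confined to the lineage genes. Of the 8 astrocyte markers, Gfap at 0.68, Aqp4 at 0.74 and Gja1 at 0.82 passed too.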

How the results depend on the processing

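Between the media, the count of the 9 genes called stayed within 1.5 times under every alternative run (6 to 9 with EtOH, 8 to 9 with 4HBP). For 4HBP in proliferation medium it went from 0 to 1 with DESeq2, voom or no filter and to 3 with all 11 libraries, and was 0 to 0 with 1 library left out. In differentiation medium it went from 0 to 1 with library totals (Myrf), and for the interaction from 0 to 1 with voom and 4 with no filter, with 0 to 1 over left-out libraries. The genes called overall went from 1074 to 1623 (DESeq2), 35 (limma), 2344 (voom) and 2668 (all 11 libraries) in proliferation medium, with 107 to 1429 over left-out libraries. They went from 395 to 0 (limma), 778 (no filter) and 0 (all 11 libraries) in differentiation medium, with 77 to 288, and from 715 to 1078 (DESeq2), 293 (limma), 1651 (voom) and 1616 (no filter) for the interaction, with 124 to 1100. With the replicate block, 534 genes were called in proliferation medium and 745 in differentiation medium, where 2 of the 9 passed. Correlations of same-numbered libraries ran from -0.061 to 0.058. The cause of these moves was not tested.

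Under the alternatives, 606 fold changes of the 9 genes kept direction and side of the threshold, 22 newly passed, 1 no longer passed and 19, all near 0, turned sign. For 4HBP in proliferation medium, Olig2 was 0.012 (library totals), 0.0083 (limma) and 0.050 (voom), and -0.079 to 0.085 over left-out libraries, and Myrf 0.0017 (library totals), 0.00043 (limma) and -0.074 to 0.043 over left-out libraries. In differentiation medium, Mbp was 0.0024 with all 11 libraries and -0.062 to 0.057 over left-out libraries, where Sox10 was -0.011 to 0.033 and Olig2 -0.00045 to 0.044. For the interaction, voom gave Olig2 -0.023 and Myrf 0.0026, and Olig2 was -0.060 to 0.11 over left-out libraries, lowest without 4HBP replicate 3 of proliferation medium. The median log2 ratio between the media over the 9 genes was 0.97 in TPM and 0.62 in FPKM. Genes at 3 counts or fewer, such as Mog in some libraries, are limited by depth.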
